A study of Ovis aries with 24 samples.

Results

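Autophagy delivers pieces of the cell's own cytoplasm to the lysosome inside a double membrane called the autophagosome. Skeletal muscle relies on it to clear worn organelles and to release amino acids during fasting and wasting, and it can be aimed at single organelles, as in mitophagy (mitochondria) and ER-phagy (endoplasmic reticulum). VMP1 is an endoplasmic reticulum membrane protein needed for the growth and release of the autophagosome membrane. GABARAPL1 belongs to the ATG8 family, small proteins that are joined to lipid on that membrane and hold cargo receptors to it. RETREG1, also known as FAM134B, is an ER-phagy receptor, and BNIP3 is a receptor in the outer mitochondrial membrane that marks mitochondria for removal and is induced by low oxygen.

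The values below describe these 4 genes of the 9155 that carry a single symbol on a bovine Affymetrix array. They are all the probe sets (groups of short probes read as 1 value) with exactly those symbols, 7 in number: 1 for VMP1 (Bt.3525.1.S1_at), 2 for GABARAPL1 (Bt.3211.1.S1_at and Bt.3211.1.S2_at, called S1 and S2 here), 1 for RETREG1 (Bt.2911.1.A1_at) and 3 for BNIP3. The BNIP3 probe sets are a bright one (Bt.26692.1.S1_a_at), a fainter one (Bt.6958.3.A1_at) and a dim one (Bt.6958.1.A1_at). The genes were selected on their signal in longissimus dorsi at birth, which was higher in the callipyge genotype than in the other genotypes. That comparison is therefore given for them as a description with no test, and the tests of these 4 genes are kept to the older lambs.

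The RNA came from skeletal muscle of Dorset, Suffolk and Rambouillet cross-bred sheep. Callipyge is an imprinted muscle trait in which the loin and hind limb muscles enlarge in the weeks after birth, and it appears only in lambs that inherit the mutation from the father alone. Longissimus dorsi (LD, the loin muscle) was sampled within 5 days of birth (T0) and at 11 to 12 weeks (T12), each time from CN (mutation from the father, callipyge), NC (mutation from the mother), CC (both copies mutated) and NN (wild type) lambs. At T12 the supraspinatus (SS, a shoulder muscle that does not enlarge) was sampled from CN and NN, and semitendinosus (ST) and a muscle coded SM, whose full name differs between labels, were sampled from NN. Each of these 12 groups is 1 value, the mean log2 signal of 2 technical arrays, 24 arrays in all. The protocol mentions 8 male lambs for LD, 4 for each of a pair of genotypes. How many animals stand behind an array was not stated. The 2 arrays of a group share their source, so the p-values reflect only how group values scatter, and differences between animals and between genotypes cannot be told apart.

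The label of muscle was borne out by its markers, with ACTA1 and CKM at or above signals of 27820.1 and 27047.6 in every group. DLK1, a gene of the callipyge locus known to be raised in callipyge muscle, read 4092.9 in LD of CN at T0 against 1105.6 to 1389.7 in the other genotypes. At T12 it read 9573.1 against 965.2 to 2818.2. The arrays of LD CN at T0 had the lowest median signals, 47.4 and 48.1, against 50.1 to 52.9 on the other T0 arrays. Of the marker lists at T0, the summed signal of 5 fibroblast and matrix genes was 46961.4 in CN against 58934.3 to 66952.7 in the others. The muscle fibre list summed to 146713.3 against 165767.2 to 180331.5, and the immune cell list to 369.1 against 275.8 to 343.8. The red blood cell list summed to 132.8 against 196.7 to 305.0, the endothelium list to 1941.3 against 2185.8 to 2583.2, and the smooth muscle list to 2431.4 against 2764.2 to 3078.1. The part of these differences in the results below was not tested, and in whole muscle a change in the number of cells of a type and a change in RNA per cell cannot be told apart.

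At birth VMP1 stood far above every other array of the series in LD of callipyge lambs. Its signal (linear MAS5 units, scaled alike on each array) was 1870.0 and 1727.1 on the 2 CN arrays. It was 806.9 and 583.4 in CC, 469.5 and 527.9 in NC, and 542.3 and 470.4 in NN. Both CN arrays lay above the 6 birth arrays of the other genotypes, and also above all 22 other arrays, of which the highest was the first CC array. The group value of CN was 3.23-fold that of the other genotypes together, a log2 difference of 1.69. By genotype it was 2.62-fold CC, 3.61-fold NC and 3.56-fold NN.

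GABARAPL1 gave the same order on both of its probe sets. On S1 the CN arrays read 2451.1 and 2649.9, CC 1281.3 and 1100.7, NC 1085.9 and 1051.9, and NN 779.5 and 806.2. On S2 they read 2225.0 and 2342.4 in CN, 1252.8 and 1145.7 in CC, 996.5 and 765.0 in NC, and 642.2 and 688.7 in NN. On each, CN was highest, CC second and NN lowest with no overlap between CN and the rest, and the CN arrays exceeded all 22 other arrays. On S1 the margin was narrow, since an SS array of NN at T12 read 2419.4. The group value of CN was 2.54-fold and 2.58-fold that of the other genotypes, and CC lay 0.58 and 0.85 above NN on the log2 scale.

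RETREG1 separated CN from 3 near-equal genotypes. The arrays read 3323.3 and 3502.2 in CN, 1615.7 and 1757.0 in CC, 1529.0 and 1477.7 in NC, and 1537.7 and 1499.0 in NN. The 6 arrays of the other genotypes spanned a narrow range below CN, and no other array of the series reached the CN level. The difference of CN from the other genotypes was 1.12 on the log2 scale, or 2.18-fold, and CC was only 0.15 above NN.

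BNIP3 differed from the other 3 genes in that the CC homozygote was also well above NC and NN. On its bright probe set the birth arrays read 1978.6 and 2097.8 in CN and 1286.2 and 1307.6 in CC. They read 592.2 and 493.7 in NC and 440.8 and 356.4 in NN. The order was CN, CC, NC, NN with no overlap between neighbouring genotypes. CN was 5.14-fold NN but 1.57-fold CC, and CC exceeded NN by 1.71 on the log2 scale, compared with 0.15 to 0.85 for CC over NN on the probe sets of the other 3 genes.

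The fainter BNIP3 probe set separated CN nearly as widely but not CC. It read 457.9 and 342.0 in CN, 155.0 and 182.0 in CC, 124.3 and 143.0 in NC, and 109.7 and 154.4 in NN. CN lay above all 6 others, whereas CC exceeded NN by 0.37 on the log2 scale. The dim BNIP3 probe set stayed between 2.3 and 19.9 on all 24 arrays, under the lowest array median of 47.4. It is too dim to be read as a level and was not tested, and at birth it was lower in CN (2.7 and 2.3) than in the other genotypes (4.5 to 7.9).

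Both CN arrays lay above all 6 other birth arrays on 6 of the 7 probe sets, and below them on the dim one. Among the 15664 probe sets bright enough to test in the 12 groups, 8.38% had both CN arrays above and 9.68% had both below. Since this contrast chose the genes, the count is not read further. How many of all probe sets had both CN birth arrays above every other array of the series was not counted.

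**Figure D1:**
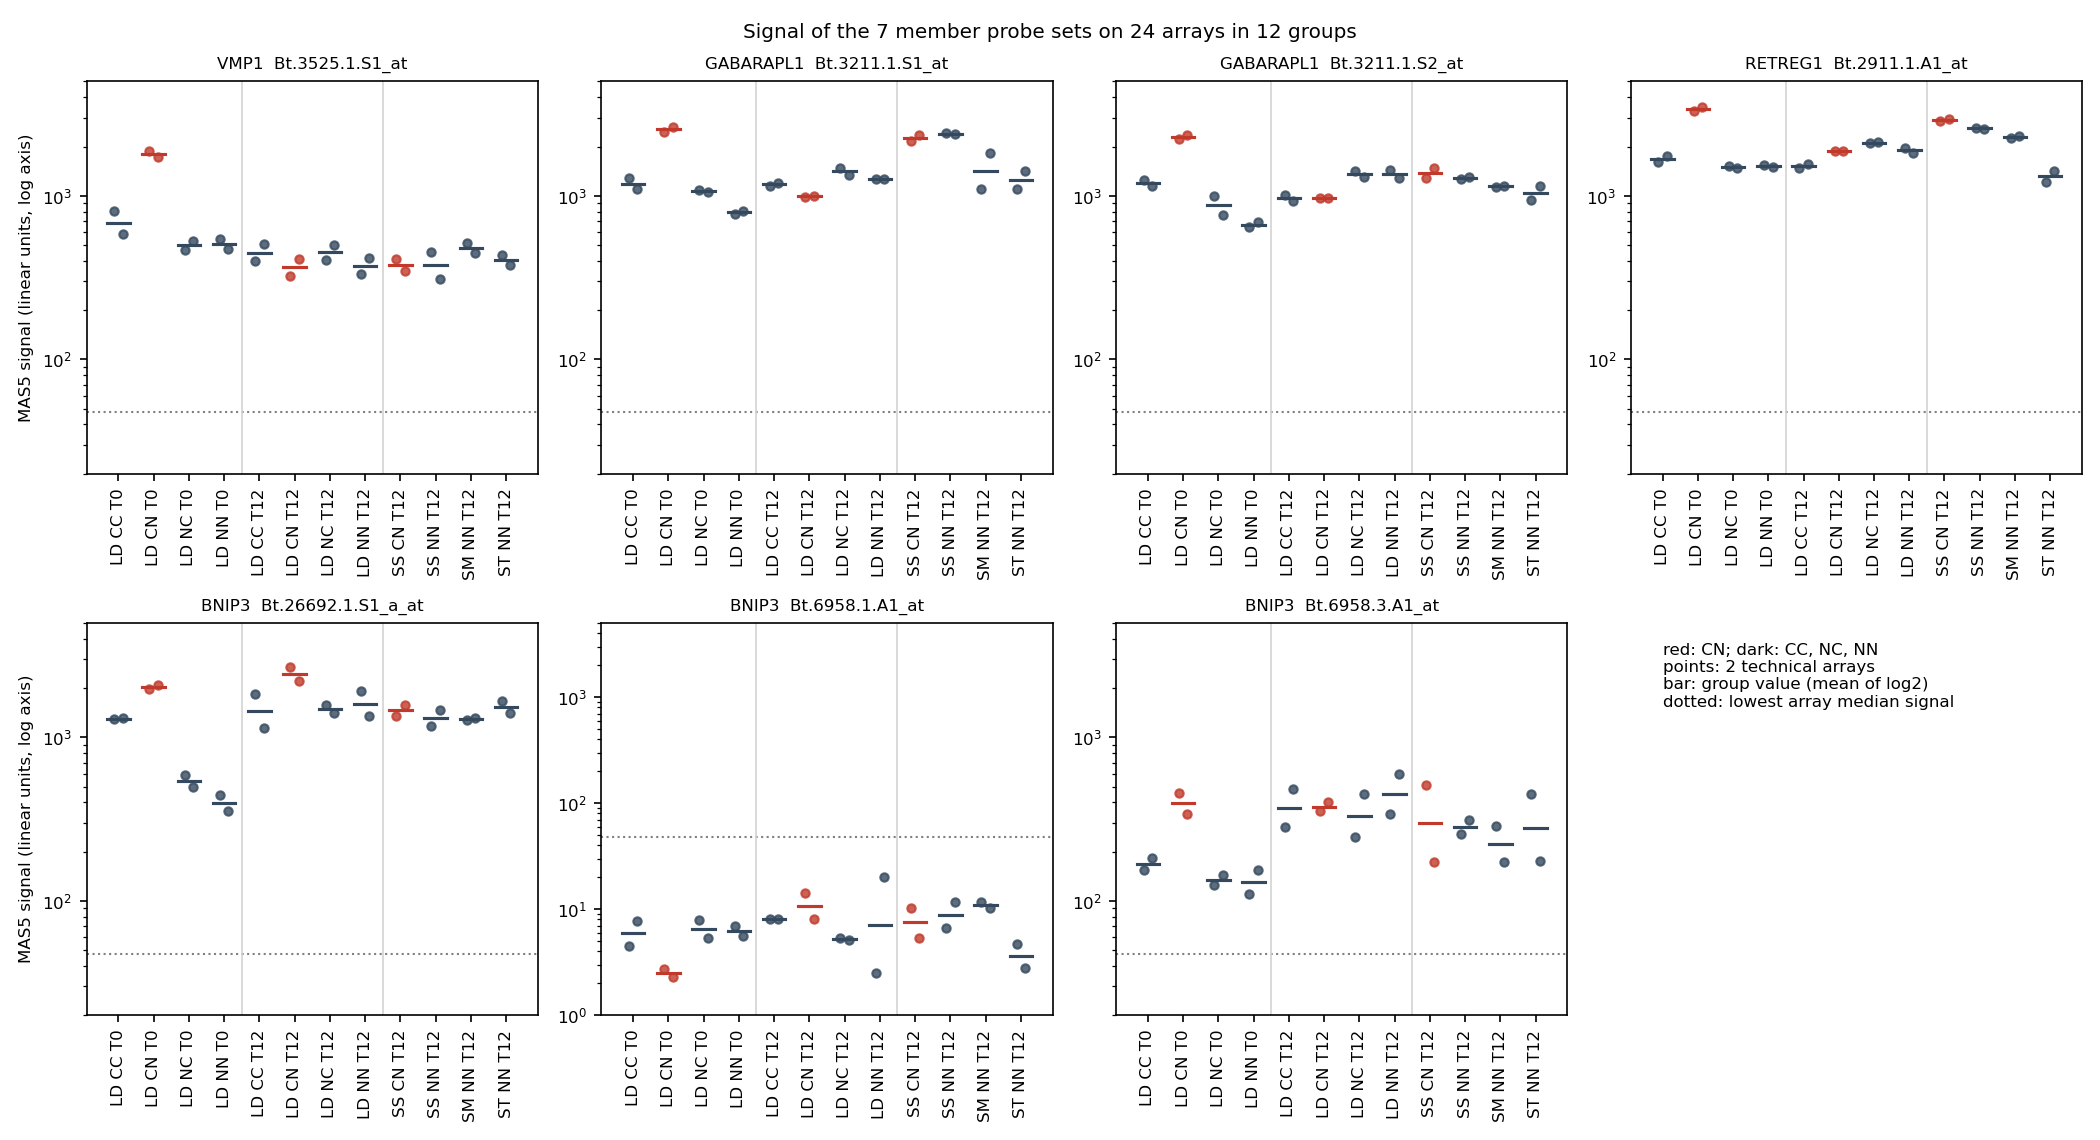
MAS5 signal (log axis) of the 7 probe sets in the 12 groups, named by muscle, genotype and age; points are the 2 technical arrays of a group, bars the group value, red marks CN, and the dotted line is the lowest array median, 47.4. In LD at T0 the CN points stand above the other 3 genotypes on every probe set except the dim one of BNIP3, whose axis reaches lower; at T12, among the probe sets above that line, only the bright one of BNIP3 has CN highest in LD.

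With age the callipyge excess was no longer seen for VMP1, GABARAPL1 and RETREG1. In CN lambs the LD group value of VMP1 went from 1797.1 at T0 to 366.1 at T12, a log2 difference of -2.30. GABARAPL1 went from 2548.6 to 993.4 on S1 (-1.36) and from 2282.9 to 973.2 on S2 (-1.23). RETREG1 went from 3411.6 to 1867.1 (-0.87). In NN, by contrast, both GABARAPL1 probe sets were higher at T12 than at T0, by 0.68 and 1.03, and RETREG1 by 0.33, while VMP1 was lower by 0.44. NC was also higher at T12 for GABARAPL1 (0.40 and 0.63) and RETREG1 (0.49). CC, like CN, was not higher, with -0.02 and -0.30 for GABARAPL1 and -0.15 for RETREG1.

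BNIP3 followed another course, in which NC and NN were much higher at T12 than at T0 and CN was not lower on the bright probe set. On the bright probe set NN went from 396.4 at T0 to 1602.7 at T12 and NC from 540.7 to 1491.8. CC went from 1296.9 to 1451.5 and CN from 2037.3 to 2447.4. The log2 differences between the ages were 2.02 for NN, 1.46 for NC, 0.16 for CC and 0.27 for CN. On the fainter probe set they were 1.78, 1.32, 1.14 and -0.07 in the same order. CN and CC differed least between the ages on the former, and CN alone on the latter. These age differences have the birth values that chose the genes on one side and are given with no test. Whether the effect of CN itself differed between the ages was not tested for the same reason.

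At T12 the callipyge genotype was compared with the other 3 genotypes of LD by limma, in a fit to the 8 T12 groups alone that left out the birth arrays. VMP1 arrays read 325.3 and 412.1 in CN, 398.0 and 507.3 in CC, 403.1 and 503.8 in NC, and 333.4 and 416.9 in NN. The 4 genotypes overlapped throughout. The CN difference was -0.21 ± 0.20 (SE) on the log2 scale, with a 95% interval of -0.67 to 0.26 and an adjusted p of 0.801. Against NN alone it was -0.03, and with 1 array left out it lay between -0.38 (without the second array of LD CN) and -0.04 (without the first).

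GABARAPL1 was not higher in CN at T12, and on S1 it was lowest there, opposite to birth. On S1, CN read 986.0 and 1000.8 and the other genotypes 1148.5 to 1471.9, with a median of 1268.5. Both CN arrays were below all 6 others, which was also true of 7.58% of all probe sets. The difference was -0.37 ± 0.16 (95% interval -0.74 to 0.005, limma adjusted p = 0.512). On S2, CN (971.5 and 975.0) lay among the CC arrays (1011.0 and 936.0) and below NC and NN (1292.1 to 1432.4), with a difference of -0.32 ± 0.22 and an adjusted p of 0.704 by limma.

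RETREG1 read 1867.5 and 1866.8 in CN at T12. CC was lower (1479.3 and 1556.7), NC higher (2090.2 and 2124.4) and NN close to CN (1974.1 and 1832.6). CN sat in the middle of the other genotypes, and the difference was 0.03 ± 0.20 (95% interval -0.41 to 0.48, limma adjusted p = 0.978). With quantile normalization it was -0.02, and against NN alone -0.03.

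BNIP3 on its bright probe set was the exception. The CN arrays read 2700.1 and 2218.4, CC 1838.8 and 1145.8, NC 1570.5 and 1417.0, and NN 1909.2 and 1345.4. Both CN arrays were above all 6 others, as for 5.06% of all probe sets, and it was the only 1 of the 7 probe sets with that order. CN was 1.62-fold the other genotypes, a log2 difference of 0.69 ± 0.15 (95% interval 0.35 to 1.03). The unadjusted p was 0.00147 and the limma p adjusted over 15105 probe sets was 0.190, so the difference did not pass. In the fit to all 12 groups the SE was 0.46, the unadjusted p 0.162 and the limma adjusted p 0.706. In the T12 fit the difference was 0.55 without the first array of LD CN at T12 and 0.83 without the second. On the fainter probe set the CN arrays (353.4 and 400.7) fell inside the range of the others (246.0 to 592.9), with a difference of -0.02 ± 0.23, so the probe sets of BNIP3 did not give the same picture at T12.

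In this comparison 0 of the 6 tested probe sets passed by limma, where 0.0199% of all probe sets did. At an unadjusted p under 0.05 there was 1 of 6, where 9.88% of all did. In the fit to all 12 groups, 0 of 6 passed, where 0.179% of all did, and 0 of 6 had an unadjusted p under 0.05, where 9.97% of all did. In LD of CN at T12 the fibroblast and matrix list summed to 30653.3 against 40858.1 to 51702.2 in the other genotypes, and the immune list to 305.8 against 443.4 to 488.3. The muscle fibre list summed to 172482.5 against 187780.3 to 205134.1, the endothelium list to 2303.0 against 2438.7 to 2844.0, and the adipocyte list to 195.1 against 237.2 to 508.0. The red blood cell and smooth muscle sums lay inside the range of the others. The part of these differences was not tested.

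The supraspinatus offers the same genotype in a muscle that callipyge leaves unenlarged. VMP1 read 411.5 and 348.2 in CN and 455.0 and 311.7 in NN. RETREG1 read 2852.8 and 2962.9 in CN and 2609.6 and 2577.8 in NN. BNIP3 on the bright probe set read 1356.8 and 1578.2 in CN and 1170.6 and 1470.6 in NN. GABARAPL1 S1 read 2174.6 and 2354.2 in CN and 2419.4 and 2389.2 in NN. The RETREG1 difference was 0.16 ± 0.24, within an interval of -0.38 to 0.71, and that of GABARAPL1 S1 was -0.09 ± 0.20. For the 6 tested probe sets the CN minus NN difference lay between -0.09 and 0.16, and 0 of 6 passed by limma or reached an unadjusted p under 0.05, where 0% and 3.91% of all probe sets did.

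The difference between the callipyge effect in LD and in SS at T12 was tested directly. It was 0.54 ± 0.23 for BNIP3 on the bright probe set, with a 95% interval of -0.001 to 1.07, an unadjusted p of 0.0504 and a limma adjusted p of 0.997. For the other 5 tested probe sets it lay between -0.41 and -0.09. In all, 0 of 6 passed, as did 0% of all probe sets, and 0 of 6 had an unadjusted p under 0.05, where 4.65% of all did.

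**Figure D2:**
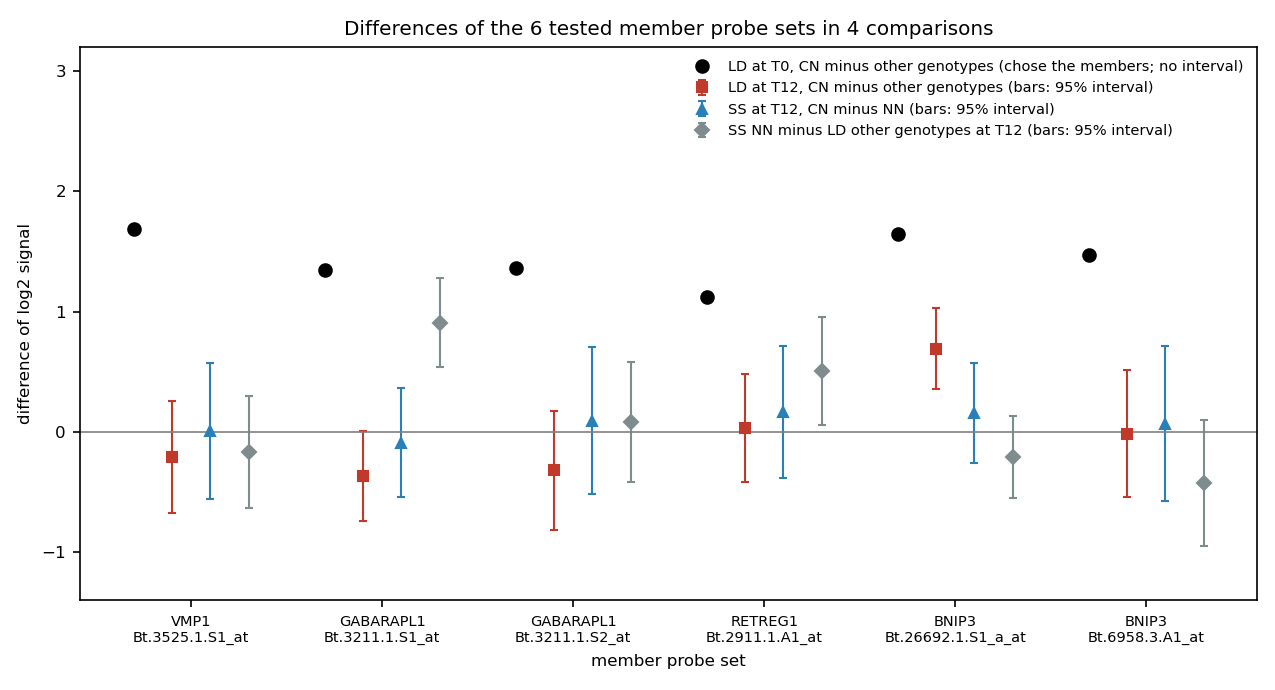
Differences of log2 signal for the 6 tested probe sets: LD at T0, CN minus the other genotypes (black, the contrast that chose the genes, no interval); the same at T12 (red); CN minus NN in SS (blue); and SS NN minus the LD genotypes other than CN (grey), with 95% intervals. The black points lie between 1.12 and 1.69, whereas the red intervals include 0 except for the bright BNIP3 probe set, and the grey interval of GABARAPL1 S1, 0.54 to 1.28, and that of RETREG1, 0.06 to 0.95, lie above 0.

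Across muscles at T12, RETREG1 and GABARAPL1 on S1 were highest in the supraspinatus of both genotypes. On S2 the SS CN group value, 1374.5, was highest only by a narrow margin over LD NN (1360.4) and LD NC (1355.1). SS NN lay below these at 1287.6. On S1 the 4 SS arrays of GABARAPL1 read 2174.6, 2354.2, 2419.4 and 2389.2. The 12 arrays of the other T12 groups ran from 986.0 to 1831.0 with a median of 1233.1. There was no overlap, for this probe set or for RETREG1, whose SS arrays ran from 2577.8 to 2962.9 against 1221.7 to 2319.0 elsewhere. Over all probe sets, 3.5% had all 4 SS arrays above the other 12.

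SS of NN lambs was compared with the LD genotypes other than CN in the same fit. GABARAPL1 S1 was 1.88-fold higher in SS, a difference of 0.91 ± 0.16 (95% interval 0.54 to 1.28, limma adjusted p = 0.0279). It was the only 1 of 6 that passed, where 1.22% of all probe sets passed as higher in SS. The call was lost without an intensity trend in the variance model (adjusted p = 0.296), without the second array of LD NC at T12 (0.103) and without the first array of LD NN at T12 (0.0538). On S2, SS of NN read 1266.2 and 1309.3, inside the range of LD, and the difference was 0.08 ± 0.22 (limma adjusted p = 0.901), so the pair of GABARAPL1 probe sets disagreed across muscles while they agreed across genotypes at birth. RETREG1 was 0.51 ± 0.20 higher in SS, at an unadjusted p of 0.0308 and a limma adjusted p of 0.254.

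VMP1 did not separate the muscles. Its T12 group values in order were LD CN 366.1, LD NN 372.8, SS NN 376.6, SS CN 378.5, ST 404.2, LD CC 449.3, LD NC 450.6 and SM 478.0. The arrays of each neighbouring pair in that order overlapped. For RETREG1 the order from low to high was ST 1318.0, LD CC 1517.5, LD CN 1867.1, LD NN 1902.0, LD NC 2107.2, SM 2294.4, SS NN 2593.7 and SS CN 2907.3. Its arrays were close within groups, so that only LD CN and LD NN among these neighbours overlapped. ST lay 0.47 ± 0.20 under LD, with an unadjusted p of 0.0415 and a limma adjusted p of 0.639.

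BNIP3 was level across the muscles on its bright probe set, with group values from 1302.1 in SM to 1602.7 in LD NN once LD CN (2447.4) is set aside. On the fainter one SM was lowest (285.8 and 172.5), 0.78 ± 0.23 under LD, with an unadjusted p of 0.00916 and a limma adjusted p of 0.704. The 2 arrays of a group were far apart on this probe set, such as 511.1 and 173.4 in SS CN and 450.6 and 174.1 in ST. For SM against LD 0 of 6 passed (0% of all probe sets) and 1 of 6 had an unadjusted p under 0.05 (5.83% of all). For ST against LD the counts were 0 of 6 (0.0463% of all) and 1 of 6 (7.56% of all). An F test over the 4 muscles passed for 0 of 6, where 0.662% of all did, with the lowest adjusted p, 0.126, for GABARAPL1 S1, and for 3 of 6 at an unadjusted p under 0.05, where 12.2% of all did.

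The members' patterns over groups differed between genes already with the birth arrays in. Over all 12 groups the Pearson r of log2 group values was 0.084 for VMP1 with bright BNIP3 and -0.006 with fainter BNIP3. VMP1 had 0.337 to 0.563 with GABARAPL1 and RETREG1. Pairs within GABARAPL1 and RETREG1 had 0.799 to 0.866, and the BNIP3 pair 0.862. GABARAPL1 and RETREG1 had 0.415 to 0.666 with BNIP3, and only negative r without the birth arrays. Over the 8 T12 groups the Pearson r of log2 group values was 0.67 between the GABARAPL1 probe sets, 0.78 and 0.70 between each of them and RETREG1, and 0.54 between the bright and the fainter BNIP3 probe sets. VMP1 had a negative r with each of the other 5, from -0.50 to -0.17. The r of GABARAPL1 S1 with the bright BNIP3 probe set was 0.47 over all 12 groups and -0.61 over the 8 at T12. These are descriptions over few groups, and those over 12 include the LD CN birth value that the choice of genes made high.

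The genes most like each member over the 12 groups, 3 per member, were sought among all tested probe sets with a single symbol. These r values include the LD CN birth value that chose the members, so they are a description and no support. Each gene named was itself higher in CN at T0, such as TMEM86A (353.1 against 127.4). For VMP1 they were TMEM86A (r = 0.95), CRCP (0.94) and NPC1 (0.93), the last a lysosomal cholesterol transporter. For BNIP3 on the bright probe set they were RIOK3 (0.94), MAP1LC3B (0.93), the best known ATG8 protein in mammals, and LRP10 (0.92). For GABARAPL1 S2 they were BLTP3B (0.95), RANBP10 (0.92) and MYLIP (0.90). For RETREG1 they were SSBP2 (0.94), GABARAPL1 itself on its other probe set (0.87) and DMKN (0.86).

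The genes were picked for a high r over 12 groups, so a lower r over fewer groups is partly built in. Over the 8 T12 groups alone all of these r values were lower. They were between 0.35 and 0.45 for the 3 genes like VMP1. They were 0.68, 0.42 and 0.69 for BLTP3B, RANBP10 and MYLIP with GABARAPL1, and 0.75, 0.61 and 0.76 for RIOK3, MAP1LC3B and LRP10 with BNIP3. With RETREG1 they were 0.90 for SSBP2, 0.78 for GABARAPL1 and 0.83 for DMKN. BLTP3B (82.0 in CN and 34.5 in the others at T0) and DMKN (53.6 and 15.4) are dim.

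The rest of the autophagy machinery was read from a list of 77 genes by role, of which 63 were on the array, 59 besides the members. Of these, 56 were bright enough to test, on the brightest probe set of each gene. In LD at birth, 0 of the 56 passed in either direction by limma, where 0.172% of all probe sets did, nor did any of their 79 tested probe sets. At an unadjusted p under 0.05, 12 were higher in CN and 1 lower, 21.4% and 1.79% of the list, where 5.07% and 8.85% of all 7480 genes tested were. The difference was positive for 37 and negative for 19, with a median of 0.19 against -0.03 over all genes. Over all genes it was positive for 3508 and negative for 3972. The members are not in these counts.

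Among the genes that supply membrane to the growing autophagosome, WIPI1, which binds its lipid, was nearest to passing. Its group values at birth were 387.1 in CN, 184.9 in CC, 174.7 in NC and 149.5 in NN, 1.20 ± 0.22 higher in CN, with a limma adjusted p of 0.0528. With a floor of 16 on low signals the limma adjusted p was 0.0477, and with probe sets kept only where above the median in every group it was 0.0331. Of 6 alternatives that kept all arrays, WIPI1 passed in these 2 and not in the rest. Without the first or the second array of LD CN at T0 the difference was 1.12 and 1.27. At T12 WIPI1 read 234.6 in CN against 201.6, a difference of 0.22.

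In the conjugation class, which holds the ATG8 family of GABARAPL1, 8 of 12 differences at birth were positive (median 0.13). MAP1LC3B, the usual marker of autophagosomes, read 5493.1 in CN, 4592.0 in CC, 2258.1 in NC and 2112.2 in NN, a difference of 0.97 ± 0.34 (limma adjusted p = 0.267). MAP1LC3A read 1636.8, 1218.6, 868.6 and 539.9 in the same order, 0.98 ± 0.36 (limma adjusted p = 0.305). Both had CC between CN and the other genotypes, the order seen for BNIP3 and GABARAPL1. ATG4C, a protease that prepares ATG8 proteins, was the lowest at -0.72 but dim (29.1 against 47.8).

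Of the cargo receptors 5 of 6 differences were positive (median 0.32), led by CALCOCO2 at 0.67 (1497.7 against 941.1) and OPTN at 0.42, neither of which passed. Of the 4 other mitophagy genes tested only BNIP3L, the close relative of BNIP3, was positive, at 0.70 ± 0.24 (2530.8 against 1556.6, limma adjusted p = 0.259). PINK1, the kinase of the other main mitophagy route, was -0.58 (129.5 against 193.1, limma adjusted p = 0.292). Of 5 other ER-phagy genes 3 were positive, with CCPG1 highest at 0.65.

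Among regulators, DDIT4, an inhibitor of the growth kinase mTOR that is induced by stress and glucocorticoids, read 8022.8 in CN, 5375.8 in CC, 3526.8 in NC and 4664.3 in NN. Its difference was 0.85 ± 0.19 (limma adjusted p = 0.0935). It passed in none of 6 alternatives that kept all arrays, and the difference was 0.90 without the second array of LD CN at T0. PRKAA1, a catalytic subunit of the energy sensor AMPK, was 0.74 higher (limma adjusted p = 0.188). In the lysosome class 7 of 10 were positive, with MITF at 0.83, LAMP2 at 0.69 and the protease CTSD at 0.62, and none passed. LAMP2 was not highest in CN: it read 701.2 in CN, 713.1 in CC, 299.5 in NC and 383.0 in NN. CTSD read 895.5, 801.7, 461.1 and 540.3 in the same order. Initiation genes were split, 2 positive and 2 negative (median -0.03), and of the nucleation genes BECN1 was highest at 0.41.

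**Figure D3:**
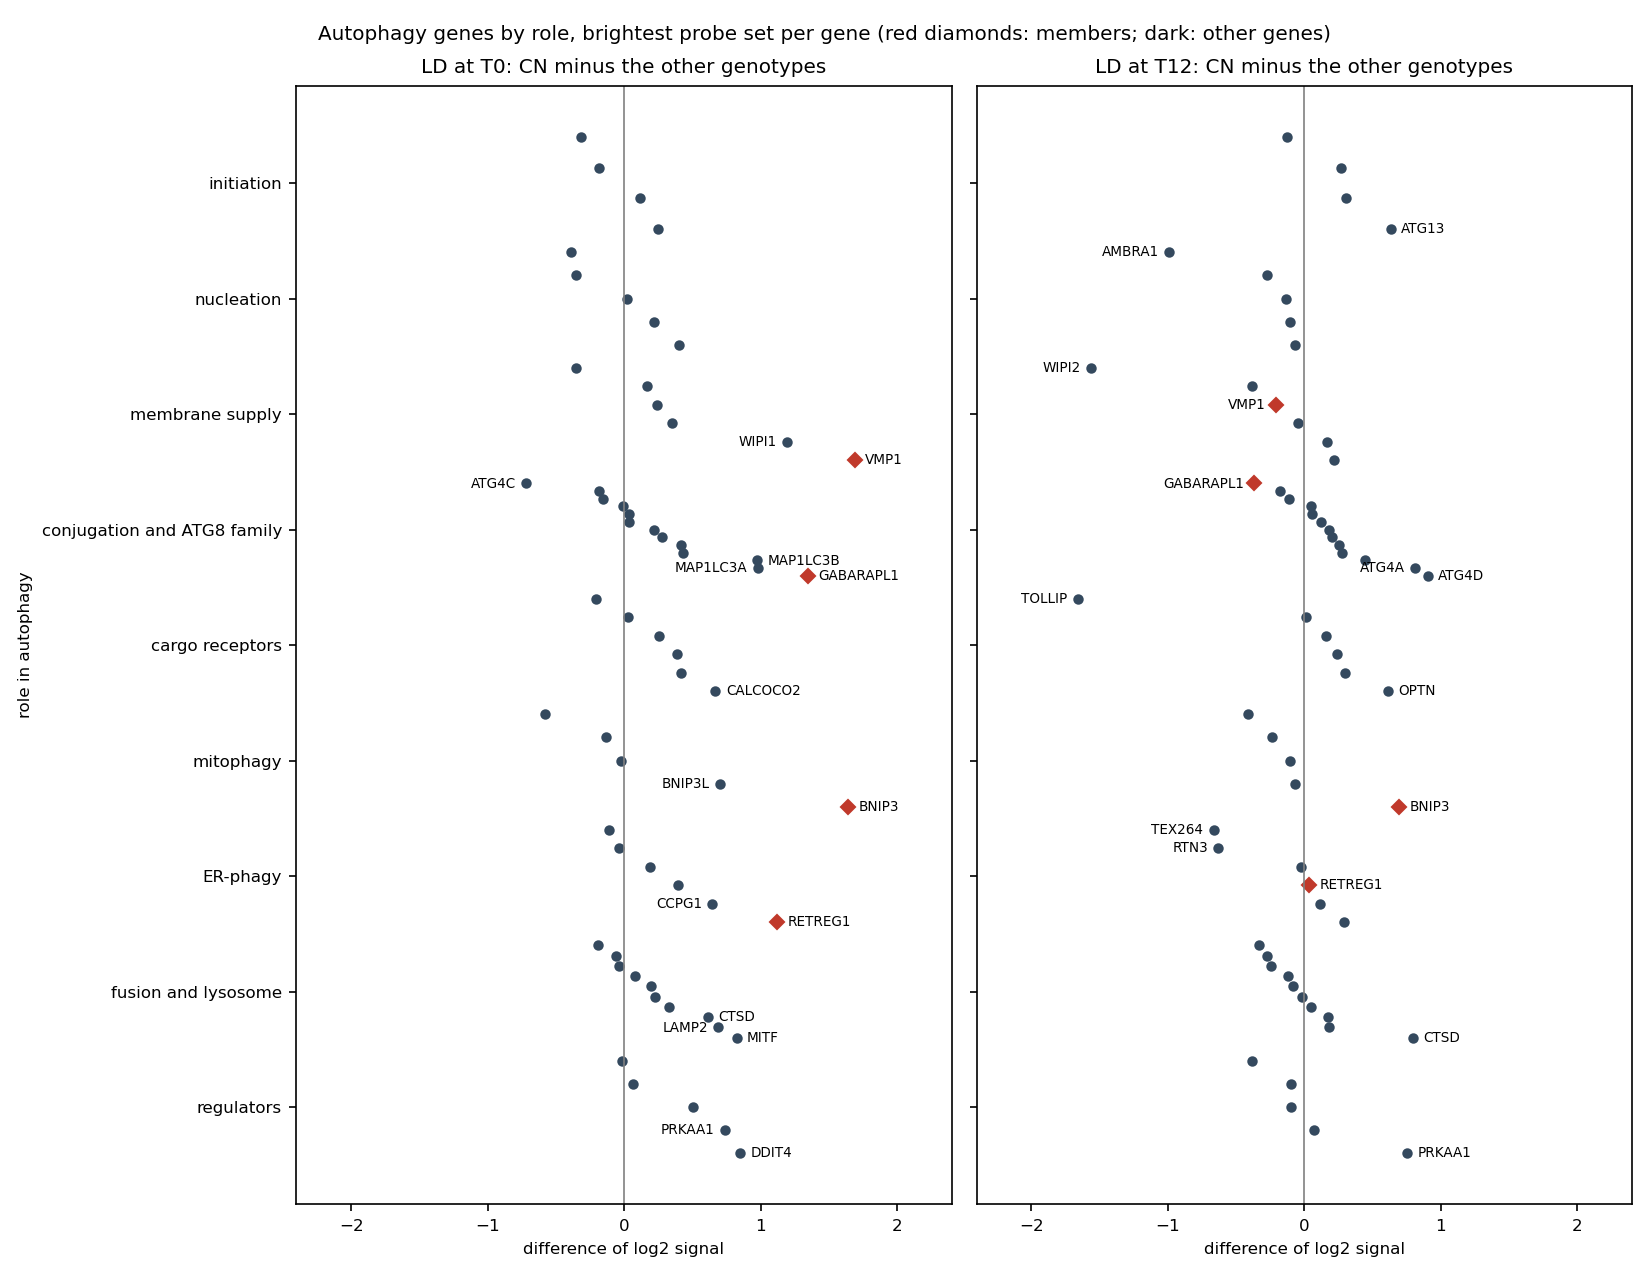
Difference of log2 signal in LD, CN minus the other genotypes, at T0 (left) and T12 (right), for each tested gene of the autophagy list on its brightest probe set, by role; dots are genes, red diamonds VMP1, GABARAPL1, RETREG1 and BNIP3, and genes beyond 0.6 are named. At T0 37 of 56 dots lie right of 0, and at T12 28 of 56 do. Over all genes tested, 3508 of 7480 were positive at T0 and 3184 of 7307 at T12.

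At T12 the same list was evenly split in LD, with 28 positive and 28 negative. Over all genes 3184 were positive and 4123 negative. The median was -0.00 for the list, against -0.06 over all genes. By limma 0 of 56 passed, where 0.0199% of all probe sets did, and at an unadjusted p under 0.05 there were 6 higher and 3 lower, where 3.33% and 7.38% of all genes were. The differences of MAP1LC3A (0.06), MAP1LC3B (0.25), BNIP3L (-0.41) and DDIT4 (-0.39) lay below those at birth, and whether they differed between the ages was not tested. The highest were the ATG8 proteases ATG4D at 0.90 ± 0.18 (709.1 against 379.4, limma adjusted p = 0.174) and ATG4A at 0.81, then CTSD at 0.79, PRKAA1 at 0.75, ATG13 of the initiation complex at 0.63 and OPTN at 0.61. PRKAA1, CTSD, ATG4A and OPTN were positive at both ages. The lowest were TOLLIP at -1.66 and WIPI2 at -1.56, the latter dim (10.8 against 31.9), then AMBRA1 at -0.99, TEX264 at -0.66 and RTN3 at -0.63. TOLLIP rests on 1 array: it was 0.04 without the first array of LD CN and -3.36 without the second. The others also moved with 1 array left out. WIPI2 ran from -3.15 to 0.02, AMBRA1 from -1.81 to -0.17, TEX264 from -0.893 to -0.435 and RTN3 from -1.02 to -0.24.

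In the supraspinatus 0 of the 56 genes passed between CN and NN by limma, where 0% of all probe sets did, and the median was 0.04. At an unadjusted p under 0.05, 0 were higher and 1 was lower, where 1.86% and 1.97% of all genes were. That gene was BNIP3L, at -1.08 ± 0.24 (721.7 against 1523.2, limma adjusted p = 0.945). BNIP3 itself was 0.16 in the same comparison.

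Between muscles, SS of NN was lower than the LD genotypes other than CN for MAP1LC3A at -1.30 ± 0.24 (613.6 against 1514.9, limma adjusted p = 0.0307) and for CALCOCO2, also called NDP52, at -1.24 ± 0.21 (691.9 against 1628.1, limma adjusted p = 0.0257). These were 2 of the 56 genes, where 1.23% of all probe sets passed as lower in SS. SS of CN was similarly low for both, at 562.9 and 752.6. GABARAPL1 S1 thus lay on the opposite side from its family member MAP1LC3A across these muscles. Neither call held without an intensity trend (0.303 and 0.286). Nor did they hold without the second array of LD NC at T12 (0.0659 and 0.0566), and that of MAP1LC3A was also lost without the first array of LD CC (0.0586) or of LD NN (0.0609) and in the fit to 12 groups (0.0889). RTN3, an ER-phagy receptor, passed on a less bright probe set at -1.56 (limma adjusted p = 0.0385), but the difference was 0.00 without the second array of SS NN.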

How the data were processed

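On 24 arrays, cRNA carrying biotin was hybridised, with 5 µg of total RNA as input per the labels' protocols. The deposited table holds 1 linear intensity for each probe set, which the authors made with MAS5 per the submitters' processing notes (version not given in the sources). Each array's 2% trimmed mean lay between 200.08 and 200.093, so the deposited intensity is scaled to one level. Detection calls were not used here. From the deposited intensity, 5477 of 579072 values at or below 1 were set to 1, log2 was taken, and the 2 technical arrays of a group were averaged. Array medians were 47.4 to 59.7, and the number of arrays limits the precision.

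Gene symbols came from the platform annotation, which can be old: 13318 of 24128 probe sets had 1 symbol, 86 several and 10724 none. All 4 member symbols were found in the RefSeq sheep gene table (assembly ARS-UI_Ramb_v3.0), and 6 of their 7 probe sets were tested. No sequence or coordinate is printed, since no build is named.

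Tests used limma 3.58.1 in R 4.3.3 (lmFit and eBayes, the prior variance following intensity; tests were two-sided, with p adjusted by Benjamini-Hochberg and called under 0.05). The T12 fit took the 8 T12 groups as 6 cells (CC, NC and NN of LD as 3 values of 1 cell), with 2 residual and 6.19 prior degrees of freedom. It covered 15105 probe sets above 51.2, the median of the group values, in at least 1 group. A group of 1 value was taken to scatter like the LD genotypes. The birth values of the autophagy list came from a fit to 12 groups (8 cells, 4 residual and 6.88 prior degrees of freedom, 15664 probe sets above 49.7). The scripts were tested on simulated data. The members, gene lists and tests were chosen with earlier results of these data known. Named genes are all members, the 3 symbols most correlated with each, and list genes that passed or had the largest differences overall and within each role. Alternatives were quantile normalization, a floor of 16, other filters, all 12 groups, NN alone as comparator, no intensity trend, and leaving out each array. A few T12 labels contain "birth" as well, so ages follow the titles.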

Additional observations from a re-analysis of the deposited data

Results flagged for a closer look

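The callipyge difference in LD had opposite signs at the 2 ages for VMP1 and for GABARAPL1, where the birth excess is what chose the genes. For VMP1 the CN group value was above all 3 other genotypes at T0, with a log2 difference of 1.69, and below all 3 at T12, with -0.21. The latter was -0.03 against NN alone and between -0.38 and -0.04 with 1 array left out. For GABARAPL1 S1 the differences were 1.35 at T0 and -0.37 at T12, again with CN above and then below all 3. The difference between the ages was not tested, since the birth values chose the genes, and neither T12 difference passed by limma.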

How the results depend on the processing

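At birth CN minus the other genotypes kept its sign for the 6 tested member probe sets under every alternative run. Since this contrast chose the genes, the kept sign is a description and no support. With NN alone as comparator it was 1.83 for VMP1, 1.69 and 1.78 for GABARAPL1, 1.17 for RETREG1, and 2.36 and 1.60 for bright and fainter BNIP3. At T12 quantile normalization turned the sign of RETREG1 in LD (-0.023), of bright BNIP3 in ST against LD (-0.016), of fainter BNIP3 in LD (0.003) and of MAP1LC3A in LD (-0.007), and NN alone turned RETREG1 in LD (-0.027), all from values near 0. The autophagy list at birth had 1 call with a floor of 16 and 1 with probe sets above the median in every group, both WIPI1. SS against LD had 0 member calls without an intensity trend.

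With each array left out in turn, member calls were 0 to 1 in LD at T12 and 0 to 1 in SS against LD, and list calls 0 to 2 at T0 and 0 to 1 at T12. Signs turned for these values near 0 or with discordant arrays. In LD at T12, fainter BNIP3 ran from -0.16 to 0.13, WIPI2 from -3.15 to 0.019, MAP1LC3A from -0.06 to 0.17, TOLLIP from -3.36 to 0.042 and BNIP3L from -0.97 to 0.15. In SS, CN minus NN ran from -0.27 to 0.28 for VMP1, -0.004 to 0.19 for GABARAPL1 S2, and -0.007 to 0.32 and -0.71 to 0.85 for bright and fainter BNIP3. The LD minus SS effect ran from -0.49 to 0.058 for VMP1 and -0.87 to 0.70 for fainter BNIP3. Against LD, SS ran from -0.44 to 0.11 for VMP1 and -3.12 to 0.00 for RTN3, SM from -0.22 to 0.52 for GABARAPL1, and ST from -0.16 to 0.034 for VMP1, -0.22 to 0.15 for GABARAPL1, and -0.10 to 0.13 and -1.13 to 0.25 for bright and fainter BNIP3. RTN3 also lost its call with no filter (adjusted p 0.0735). Left-out arrays gave 2380 values labelled unchanged, and the other alternatives 546. For a tested difference the label meant the same direction and call, and for a count that it stayed close. For an untested difference it meant a move smaller than the SD between technical arrays, so a value near 0 could turn its sign. Leaving out a birth array cannot change the T12 fit, so part of the 2380 was fixed in advance. The cause of the changes was not tested. No paired analysis was possible because replicate numbers name technical arrays of 1 group, which were averaged before the fit. Signal over background limits the dim probe sets, and 2 residual degrees of freedom limit the T12 tests.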
